A study of Homo sapiens with 6 samples.

Results

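The genes described here are the cadherins and the protocadherins outside the clustered arrays, together with the giant FAT, Dachsous and CELSR cadherins. They were chosen by symbol alone: CDH or PCDH followed by a number, the FAT1 to FAT4 genes, the CELSR1 to CELSR3 genes, and DCHS1 and DCHS2. The rule found 43 of the 26485 genes counted, and 29 of the 43 had at least 1 CPM (counts scaled to the library's total, in parts per 1e6) in 3 libraries and were tested. The study sequenced RNA of AF22, a human neural stem cell line, in 3 control libraries and 3 knockdown libraries. Control cells carry the label shControl, a control for short hairpin RNA, and a wild-type genotype, whereas the others are labelled as a knockdown of BMI1 and COMMD3-BMI1. BMI1 belongs to the Polycomb repressive complex PRC1, which silences developmental genes, and COMMD3-BMI1 is a transcript that runs through BMI1 and its neighbour COMMD3. The hairpin sequence and the length of treatment were not given in the sources used here. All libraries came from 1 cell line, and the labels do not say whether they came from separate cultures, so p-values reflect only how much these libraries varied, and that variation may be technical.

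Cadherins are transmembrane proteins that join cells through calcium-dependent contacts of their extracellular repeats. Classical type I and type II cadherins bind catenins and through them the actin cytoskeleton, and CDH2 (N-cadherin) is the main cadherin of the adherens junctions of neuroepithelial cells. Protocadherins bind more weakly and have cytoplasmic tails without the catenin-binding domain of the classical members. FAT and Dachsous cadherins bind each other between neighbouring cells, and CELSR cadherins are core components of planar cell polarity. Different brain regions and neuron groups carry different sets of classical cadherins, which sort cells by adhesion.

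Promoters of 3 members are shown because these members passed the test of the knockdown described below and no annotated transcript of the gene covers more than 1 of the bases shown. Each sequence is the 200 bases before the RefSeq start (GRCh38.p14), written 5′ to 3′ on the gene's strand, with every CG dinucleotide in capitals. CDH10 and PCDH18 were higher with the knockdown and PCDH8 was lower.
CDH10, chr5:24644979-24645178, minus strand: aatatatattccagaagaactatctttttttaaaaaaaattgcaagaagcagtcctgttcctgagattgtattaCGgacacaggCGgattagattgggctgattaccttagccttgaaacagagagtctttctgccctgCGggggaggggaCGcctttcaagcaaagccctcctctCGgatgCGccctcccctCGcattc
PCDH18, chr4:137532495-137532694, minus strand: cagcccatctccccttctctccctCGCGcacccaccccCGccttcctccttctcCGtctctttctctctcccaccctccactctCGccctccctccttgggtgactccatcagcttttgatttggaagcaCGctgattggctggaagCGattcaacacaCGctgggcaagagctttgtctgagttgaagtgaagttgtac
PCDH8, chr13:52848641-52848840, minus strand: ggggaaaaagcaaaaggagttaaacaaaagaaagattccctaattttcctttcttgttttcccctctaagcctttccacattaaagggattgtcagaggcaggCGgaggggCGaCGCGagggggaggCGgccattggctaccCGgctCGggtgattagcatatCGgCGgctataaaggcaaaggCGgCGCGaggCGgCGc
These stretches held 7, 8 and 14 CG dinucleotides, and their GC content was 47%, 57% and 54.5%. RefSeq promoter windows of 300 bases (250 before the start and 50 after) were found for 26 of the 43 members, in 39 entries. A CpG-rich window, with over 50% GC and an observed over expected CG ratio above 0.6, was present in 18 of the 39 entries (46.2%), against 46.8% of all 35116 entries. For the 6 members with a window that passed the test described below, 5 of 7 entries were CpG-rich. The E-box CACCTG, bound by the SNAI and ZEB repressors, was searched on both strands, where it reads CACCTG or CAGGTG. It was found in 4 of 39 entries of members (10.3%), in 7231 of all entries (20.6%) and in 0 of the 7.

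Sequencing depth was 4962745 to 9640349 counts per library, and the 43 members together held 0.255% to 0.363% of them. Here and below, "rose" and "fell" mean an adjusted p under 0.05 in edgeR with the library number as a block, a fit described with the results. BMI1 had 85.1, 89.8 and 87.4 CPM in control libraries 1 to 3 and 39.9, 21.4 and 26.2 CPM in knockdown libraries 1 to 3, with no overlap. Its log2 fold change was -1.61 (SE 0.194, adjusted p = 0.153), and -1.64 (SE 0.153, adjusted p = 0.00651) with the library number as a block. COMMD3 had means of 26.3 and 32.5 CPM (0.31, adjusted p = 0.295, and 0.0815 with the block), and COMMD3-BMI1 was listed at 0 in all 6 libraries. Knockdown library 2 was an outlying sample: the leading principal component (46.5% of variance) placed it at 42 and the other 5 between -27.2 and 12.2. The neural stem cell label was checked on 15 markers, all of which were tested: their summed level was 4456 to 4633 CPM in control and 3974 to 4922 CPM in knockdown libraries. SOX2 had means of 345 and 325 CPM. NES had means of 1032 and 868 CPM, with 1005, 575 and 1024 CPM in knockdown libraries 1 to 3. Of that list 1 gene rose (MMRN1) and 1 fell (PLAGL1). Most of the 15 were lower in the knockdown: 26.7% had a log2 fold change above 0, against 49.2% of all tested genes. Their median with the block was -0.132.

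In control cells the superfamily was led by CDH2. Per kilobase of exon, the scale used here for every comparison of levels between genes, CDH2 stood at 81.7 ± 2.86 CPM per kb (SD, n = 3). Next came CDH6, a type II cadherin, at 36.0 ± 3.72 CPM per kb and FAT1, a giant cadherin that regulates actin and Hippo signalling, at 35.9 ± 0.995. These 2 did not differ beyond their spread. DCHS1, a ligand of FAT4, had 26.0 ± 4.44 CPM per kb and PCDH18, a delta-2 protocadherin, 22.8 ± 4.87, and their ranges overlapped too. The 5 next members were CELSR2 at 16.8, CDH24 at 14.8, PCDH1 at 14.8, PCDH8 at 11.0 and CDH10 at 8.51 CPM per kb. At the low end of the tested members stood CDH3 (P-cadherin) at 0.901 and PCDH9 at 0.977 CPM per kb. The median was 5.54 CPM per kb over the 29 tested members and 10.9 over the 12800 tested genes with a length. Lengths are those of all annotated exons of a gene merged, which lowers the value of genes such as PCDH9 whose merged exons span 30726 bases.

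**Figure D1:**
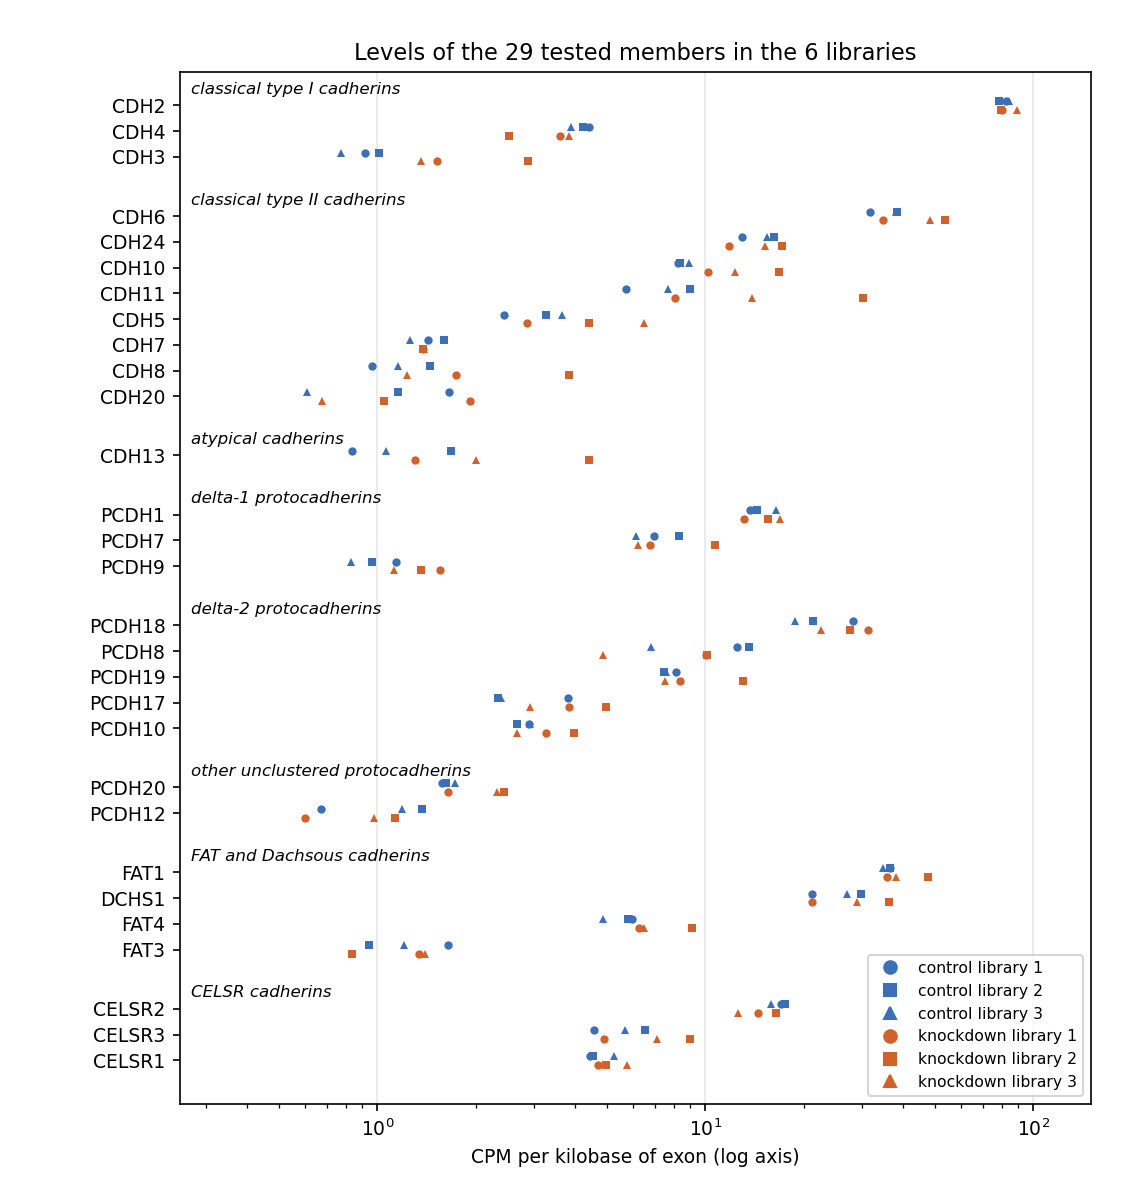
Level of each of the 29 tested members in CPM per kilobase of merged exon (log axis), 1 point per library, arranged by class. CDH2 lies above every other member in all 6 libraries, and CDH3 and PCDH9 have the lowest control means.

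The remaining 14 members were at or close to 0. CDH1 (E-cadherin), CDH12, CDH15 (M-cadherin) and CDH19 had 0 counts in all 6 libraries, which allows up to 0.16 CPM over the control group and 0.137 CPM over the knockdown group (3 counts in the group's total, counting error only). The other 10 were CDH9, CDH16, CDH17, CDH18, CDH22, CDH23, CDH26, PCDH15, FAT2 and DCHS2, with at most 5 counts in any library. Nearest below the filter were PCDH15, with 0 to 5 counts per library, and CDH26 and CDH23, with 0 to 3 each. Just inside it was CDH20, with 6.62, 4.63 and 2.45 CPM in control and 7.66, 4.18 and 2.72 CPM in knockdown libraries. Since the lowest value of a tested member in any library was 2.45 CPM, no member passed through 1 group alone. Most epithelial markers were also low: of 11 listed, 1 (KRT18) was tested, with 1.32 and 1.79 CPM in control and knockdown. KRT8 had 0.730 and 0.915 CPM, EPCAM had 0.514 and 0.443 CPM, CLDN3, GRHL2 and OVOL2 had 0 counts, and the list summed to 2.02 to 4.18 CPM in control and 1.66 to 4.72 CPM in knockdown libraries.

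With knockdown, most tested members had a log2 fold change above 0, and the highest were those of CDH11, CDH13, CDH3 and CDH8. In the planned fit with group as the only term, 0 of 29 members passed an adjusted p of 0.05 in edgeR, as did 0% of the 13523 genes tested. At an unadjusted p under 0.05 there were 7 members (24.1%), all higher in the knockdown, against 14.2% of all genes, and DESeq2 and limma voom without the block also passed 0 members. The log2 fold change was above 0 in 22 of 29 members (75.9%) and in 49.2% of all tested genes, and its median was 0.22 for the members and -0.00445 for all genes. Without the outlying knockdown library 2 the member median was 0.12, and with the block described next it was 0.206, or 0.113 without pair 2. Same-numbered control and knockdown libraries deviated together, so the number was also fitted as a block. With the block, 12 of 29 members passed (41.4%), against 9.82% of all genes. Of these, 11 rose (37.9% of members, against 4.57% of genes) and 1 fell (3.45%, against 5.25%). DESeq2 with the same block passed 3 members, CDH8, CDH10 and CDH13, all higher. In bulk RNA, a change in the number of cells that express a gene and a change in RNA per cell cannot be told apart.

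Few members separated the groups completely. In 3 members every knockdown library exceeded every control library (10.3%, against 9.13% of all genes), which is near the background: CDH3, CDH10 and FAT4. In 1, CDH4, every knockdown library was lower (background 11.0%). Within same-numbered pairs, 14 members were higher in all 3 (48.3%, against 25.0% of genes) and 4 were lower in all 3 (background 26.3%). The differences were not alike between pairs, with member medians of 0.0589, 0.391 and 0.135 log2 units in pairs 1, 2 and 3. Without pair 2, 12 members passed with the block, 10 higher and 2 lower, against 2272 of 13523 genes. They were not the same 12, since CELSR2 passed and CDH8 did not. Without pair 3, 9 members passed, against 1123 genes. There CDH5, CDH6, PCDH8, PCDH18, FAT4 and CELSR3 no longer passed, while CDH4, PCDH17 and PCDH19 did.

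**Figure D2:**
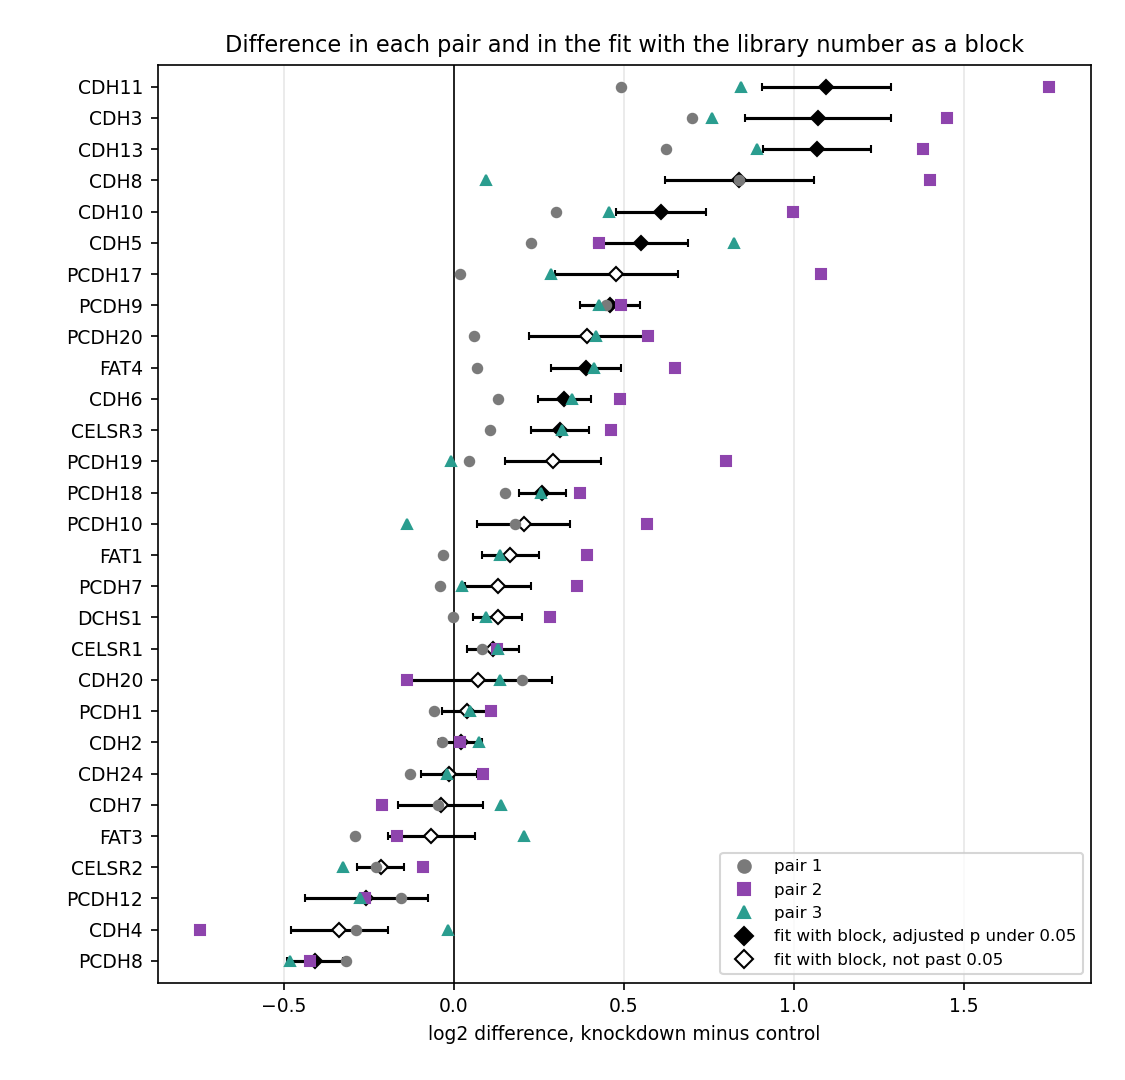
Difference in log2 CPM (knockdown minus the control library of the same number) for each of the 29 tested members, 1 coloured point per pair. Diamonds give the log2 fold change of the fit with the library number as a block, bars its SE, and filled diamonds an adjusted p under 0.05. Pair 2 holds the widest differences for most members that rose, with CDH11 at 1.75.

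Among the 5 classical type I cadherins, whose members mediate strong homotypic adhesion, 3 were tested and 1 rose. CDH2 had 366, 350 and 375 CPM in control and 357, 354 and 395 CPM in knockdown libraries, so the groups overlapped throughout. Its log2 fold change with the block was 0.02 (SE 0.062, adjusted p = 0.861), with a 95% interval of -0.12 to 0.161. CDH3 had 4.60, 5.09 and 3.89 CPM in control and 7.66, 14.4 and 6.80 CPM in knockdown libraries, all of them above the controls. It rose 2.10-fold (log2 1.07, SE 0.215, adjusted p = 0.0245; 0.262 without the block). CDH4 (R-cadherin) had 32.4, 31.2 and 28.6 CPM in control and 26.5, 18.5 and 28.2 CPM in knockdown libraries. Although the groups did not overlap, the margin in pair 3 was small, and the log2 difference of -0.34 (SE 0.141) did not pass (adjusted p = 0.161). It was -0.53 without pair 3, which passed (adjusted p = 0.0460), and -0.13 without pair 2 (adjusted p = 0.513).

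Type II cadherins, which include many of the region-specific cadherins of the developing brain, held 5 of the 12 calls: CDH6, CDH10, CDH11, CDH5 and CDH8 rose, out of 8 tested and 13 listed. Their median log2 fold change with the block was 0.44, and their summed level was 447 to 550 CPM in control and 505 to 901 CPM in knockdown libraries. CDH11, a cadherin of mesenchymal and neural cells, had 40.3, 63.1 and 54.1 CPM in control and 56.7, 213 and 97.3 CPM in knockdown libraries. Knockdown library 1 lay inside the control range and library 2 was far above the others. CDH11 rose 2.14-fold (log2 1.10, SE 0.191, adjusted p = 0.0217; 0.277 without the block), and by 0.72 on the log2 scale without pair 2. CDH8 had 11.2, 16.8 and 13.4 CPM in control and 20.3, 44.8 and 14.3 CPM in knockdown libraries, so that pair 3 hardly differed. It rose 1.79-fold (log2 0.84, SE 0.219, adjusted p = 0.0444). Its call depended on pairs 1 and 2, since the log2 value was 0.84 without pair 1 (adjusted p = 0.0589) and 0.42 without pair 2 (adjusted p = 0.0523).

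CDH10 was the type II cadherin whose groups did not overlap, at 28.3, 28.7 and 30.7 CPM in control and 35.0, 57.6 and 42.3 CPM in knockdown libraries. It rose 1.53-fold (log2 0.61, SE 0.132, adjusted p = 0.0284; 0.261 without the block), and by 0.40 on the log2 scale without pair 2. CDH6 had 282, 340 and 339 CPM in control and 309, 477 and 431 CPM in knockdown libraries, with library 1 of the knockdown again inside the control range. Its rise was 1.25-fold (log2 0.33, SE 0.0777, adjusted p = 0.0363), and 0.31 (adjusted p = 0.125) without pair 3. CDH5 (VE-cadherin), best known from endothelial junctions, had 12.9, 17.3 and 19.3 CPM in control and 15.1, 23.3 and 34.4 CPM in knockdown libraries. CDH5 rose by 0.55 on the log2 scale (SE 0.139, adjusted p = 0.0411), and this was 0.35 (adjusted p = 0.388) without pair 3. CDH24 had 46.0, 57.3 and 54.8 CPM in control and 42.0, 60.8 and 54.1 CPM in knockdown libraries, with a 95% interval of -0.199 to 0.174 around a log2 value near 0. CDH7 and CDH20 also did not pass, with log2 values of -0.04 and 0.07.

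Of 10 endothelial markers, listed because CDH5 is 1 of that cell type's junction genes, 8 were tested and TIE1 rose (log2 0.45, adjusted p = 0.0335). The list summed to 154 to 272 CPM in control and 165 to 297 CPM in knockdown libraries. KDR had means of 133 and 158 CPM, PECAM1 of 12.9 and 15.7 CPM, ERG of 8.54 and 9.93 CPM and TEK of 7.81 and 4.83 CPM. ROBO4, EMCN and ESAM had means of 2.01 to 7.23 CPM, and VWF (0.434 and 0.260 CPM) and CLDN5 (0.222 and 0.229 CPM) were below the filter. Mesenchymal markers, 11 of 12 tested, all had a log2 fold change above 0, and COL3A1 (0.39, adjusted p = 0.0289) and POSTN (0.31, adjusted p = 0.0240) rose. Their sum was 1784 to 2130 CPM in control and 2182 to 2935 CPM in knockdown libraries, without overlap. Taken singly, 0 of the 11 tested genes separated the groups, and COL3A1 made up 1057 CPM of the mean sum of 1956 CPM in control. The part of these genes in the changes of CDH5 and CDH11 was not tested. Neuronal markers, 8 of 12 tested, summed to 1090 to 1243 and 868 to 1130 CPM, ELAVL3 and NEFM fell, and ELAVL4 and RBFOX3 were at 0. Neural crest markers had 8 of 10 tested with 0 past the threshold (0 also at an unadjusted p under 0.05 without the block), sums of 503 to 551.2 and 460 to 528 CPM, and SOX10 and FOXD3 at 0. Of 7 pluripotency markers 3 were tested and 0 passed (0 also at an unadjusted p under 0.05), with sums of 407 to 561 and 481 to 601 CPM, and NANOG, TDGF1, ZFP42 and UTF1 at 0.

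**Figure D3:**
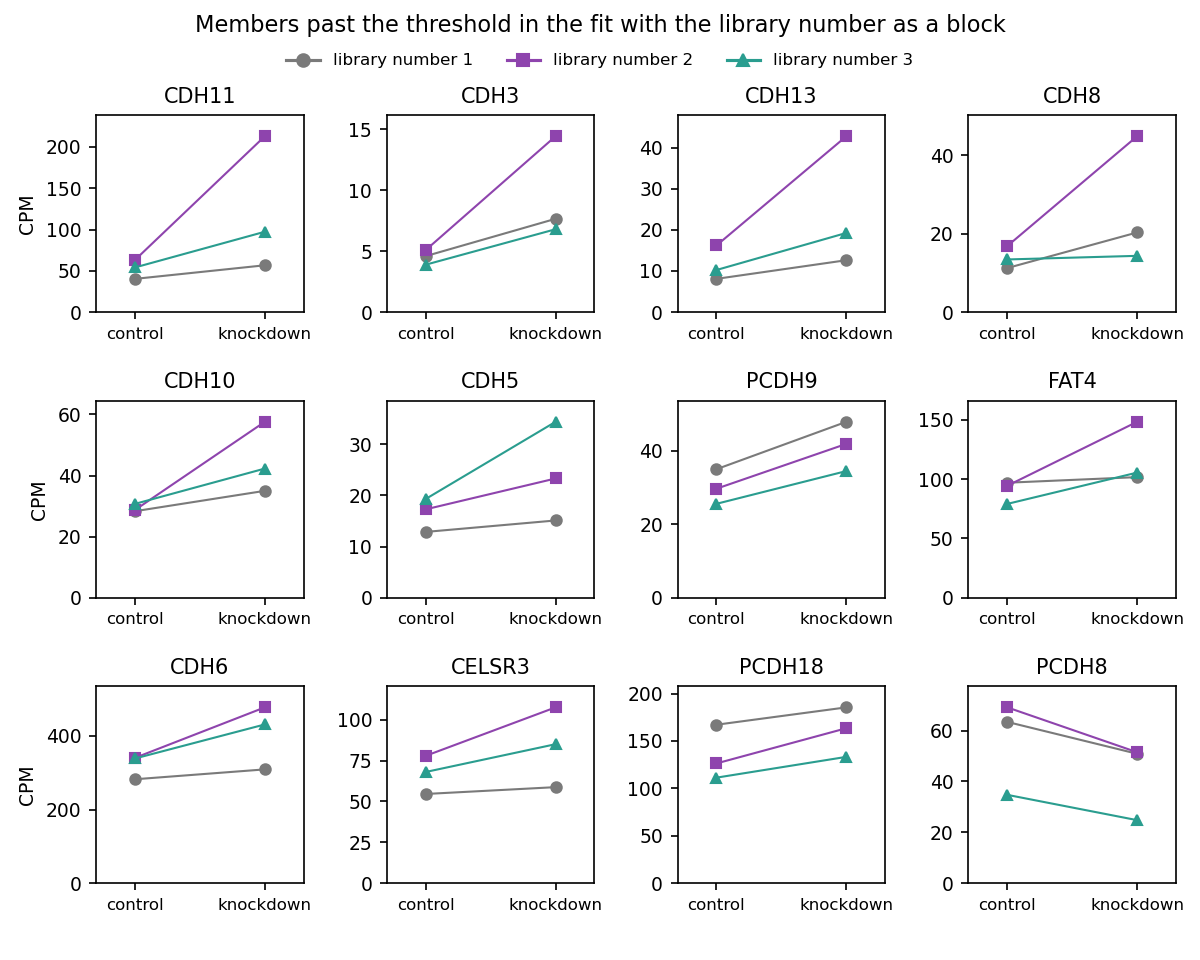
CPM in each library of the 12 members with an adjusted p under 0.05 in the fit with the library number as a block, lines joining same-numbered control and knockdown libraries. In 11 panels all 3 lines go up and in that of PCDH8 all 3 go down, while the groups overlap in 9.

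Summed per kilobase, the classical cadherins reached 152.7, 163 and 166 CPM per kb in control and 158, 214 and 194 CPM per kb in knockdown libraries. CDH2 made up 51.0% ± 2.83 of this pool in control and 44.6% ± 6.82 in knockdown libraries (SD, n = 3), with 50.8% in knockdown library 1, 37.3% in library 2 and 45.9% in library 3. CDH6 held 22.4% ± 1.43 and 24.0% ± 1.80. The share of CDH11 was 4.63% ± 0.878 in control and 8.80% ± 4.76 in knockdown libraries, and that of CDH10 was 5.30% ± 0.157 and 6.88% ± 0.838. The pool was largest in knockdown libraries 2 and 3, the libraries in which CDH2 held its smallest shares. Because CDH2 itself stayed at 350 to 395 CPM in all 6 libraries, its share falls by arithmetic where the pool is larger. The smaller shares are therefore not a separate observation.

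**Figure D4:**
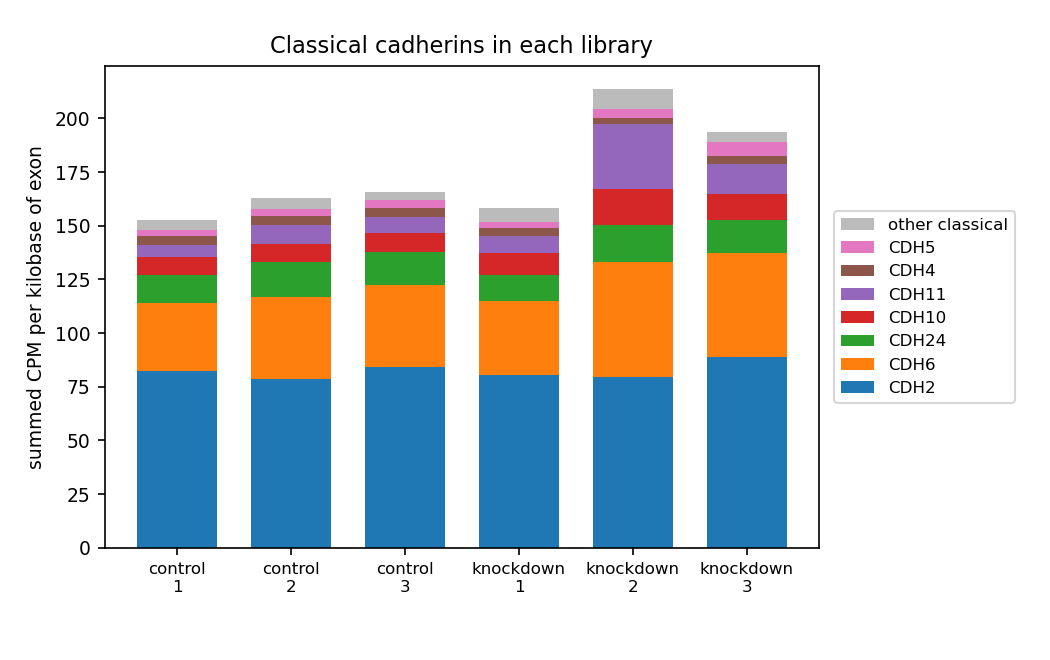
Summed level of the classical cadherins (CPM per kilobase of merged exon) in each of the 6 libraries, stacked by member. Of each bar CDH2 holds 48.2% to 53.9% in the control libraries and 37.3% to 50.8% in the knockdown libraries.

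CDH13 (T-cadherin), a cadherin anchored to the membrane by a lipid and without a cytoplasmic tail, was the only atypical cadherin of 5 that was tested. It had 8.09, 16.2 and 10.2 CPM in control and 12.6, 42.8 and 19.2 CPM in knockdown libraries. In every pair the knockdown was higher (by 0.62, 1.38 and 0.89 log2 units), although the groups overlapped. CDH13 rose 2.10-fold (log2 1.07, SE 0.159, adjusted p = 0.0185; 0.309 without the block), and by 0.82 on the log2 scale without pair 2. It passed under all 10 settings with the block, as did CDH10.

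All 3 delta-1 protocadherins within the naming rule were tested and PCDH9 rose. The tails of this class bind protein phosphatase 1. PCDH11X, a delta-1 protocadherin outside the rule, had means of 1.28 and 2.30 CPM in control and knockdown and did not pass (log2 0.95 with the block, adjusted p = 0.294). PCDH9 had 34.9, 29.6 and 25.5 CPM in control and 47.8, 41.8 and 34.4 CPM in knockdown libraries, with nearly equal differences in the 3 pairs (0.45, 0.49 and 0.43 log2 units). It rose 1.38-fold (log2 0.46, SE 0.0884, adjusted p = 0.0236; 0.284 without the block). PCDH1 had 73.9, 77.8 and 88.5 CPM in control and 71.0, 84.0 and 91.6 CPM in knockdown libraries, and its log2 value of 0.04 did not pass (95% interval -0.123 to 0.199). PCDH7 had 49.6, 59.3 and 43.5 CPM in control and 48.2, 76.3 and 44.3 CPM in knockdown libraries, a difference that came from library 2 (0.13, adjusted p = 0.424).

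The 5 delta-2 protocadherins, which act in neural circuit formation and of which several recruit the WAVE actin regulator, were the class with a call in each direction. PCDH18 had 167, 126 and 111 CPM in control and 185, 163 and 133 CPM in knockdown libraries. Control library 1 exceeded 2 of the 3 knockdown libraries, yet each pair differed in the same direction (0.15, 0.37 and 0.26 log2 units). It rose 1.20-fold (log2 0.26, SE 0.069, adjusted p = 0.0463), and did not pass without pair 1 (0.32, adjusted p = 0.0605) or pair 3 (0.26, adjusted p = 0.223). PCDH8, known as a regulator of cadherin uptake at the surface, had 63.4, 69.2 and 34.8 CPM in control and 50.9, 51.5 and 24.8 CPM in knockdown libraries. Library 3 was low in both groups, and within pairs the knockdown was lower by a like amount (-0.32, -0.42 and -0.48 log2 units). PCDH8 was the 1 member that fell, to 0.753 of control (log2 -0.41, SE 0.083, adjusted p = 0.0249; 0.590 without the block; 0.0945 without pair 3). PCDH19 (0.29, adjusted p = 0.217), PCDH17 (0.48, adjusted p = 0.123) and PCDH10 (0.21, adjusted p = 0.363) did not pass. PCDH17 passed without pair 1 (0.70, adjusted p = 0.0375), without pair 3 (0.57, adjusted p = 0.0184) and with no filter (0.48, adjusted p = 0.0259), and PCDH19 without pair 3 (0.44, adjusted p = 0.0180). Without pair 2 their values were 0.16 and 0.0157. Each of these 3 was higher mainly in knockdown library 2, for example PCDH17 with 31.3, 19.1 and 19.6 CPM in control and 31.7, 40.9 and 24.0 CPM in knockdown libraries.

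Summed per kilobase, the unclustered protocadherins within the rule, thus without PCDH11X, reached 79.5, 74.0 and 64.7 CPM per kb in control and 80.5, 90.8 and 68.0 CPM per kb in knockdown libraries. In control, PCDH18 held 31.1% of it, PCDH1 20.6% and PCDH8 14.9% ± 3.97, and the share of PCDH8 was 10.2% ± 2.75 in the knockdown (SD, n = 3). Of the 3 other unclustered protocadherins, PCDH15 was not tested. PCDH20 had 7.54, 7.72 and 8.22 CPM in control and 7.86, 11.6 and 11.1 CPM in knockdown libraries (0.39, adjusted p = 0.172). PCDH12 had 4.41, 8.95 and 7.79 CPM in control and 3.93, 7.42 and 6.38 CPM in knockdown libraries (-0.26, adjusted p = 0.387). Neither passed the test.

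Of the 6 FAT and Dachsous cadherins 4 were tested, and FAT4, the receptor of DCHS1, rose. FAT4 had 96.9, 94.3 and 79.0 CPM in control and 102, 148 and 105 CPM in knockdown libraries, without overlap, although pair 1 differed by 0.07 log2 units. Its rise was 1.31-fold (log2 0.39, SE 0.102, adjusted p = 0.0452; 0.312 without the block). It did not pass without pair 3 (0.37, adjusted p = 0.0528), and was 0.26 without pair 2. DCHS1 had 227, 321 and 291 CPM in control and 227, 390 and 311 CPM in knockdown libraries, which overlapped (0.13, adjusted p = 0.277). FAT1 had 542, 539 and 515 CPM in control and 530, 706 and 565 CPM in knockdown libraries (0.17, adjusted p = 0.233). FAT3 had 31.4, 18.1 and 23.1 CPM in control and 25.7, 16.1 and 26.7 CPM in knockdown libraries (-0.07, adjusted p = 0.779). Neither of the last 2 passed. For FAT1, knockdown libraries 2 and 3 lay above every control library and library 1 did not, and the 95% interval was -0.0232 to 0.357.

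The 3 CELSR cadherins, orthologs of the fly polarity gene flamingo, did not move alike. CELSR3 had 54.6, 78.0 and 68.1 CPM in control and 58.8, 108 and 85.1 CPM in knockdown libraries. It rose 1.24-fold (log2 0.31, SE 0.0842, adjusted p = 0.0489; 0.510 without the block) and lay closest to the threshold, not passing in DESeq2 (adjusted p = 0.219) or without pair 3 (0.192). CELSR2 had 178, 184 and 166 CPM in control and 152, 173 and 133 CPM in knockdown libraries, lower in each pair. Its log2 value of -0.21 (SE 0.0696) did not pass (adjusted p = 0.0824), but did without pair 2 (-0.28, adjusted p = 2.99e-05) and with a trend in GC content and length removed (-0.25, adjusted p = 0.0364). CELSR1 had 50.6, 51.9 and 60.0 CPM in control and 53.6, 56.6 and 65.7 CPM in knockdown libraries (0.12, adjusted p = 0.353). The difference between CELSR3 and CELSR2 was not tested.

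Several of the members that rose lie on chromosome 16, an arrangement looked at after their values were seen. Of 8 members on that chromosome 5 were tested, and all 5 rose (median 1.07 on the log2 scale). Along GRCh38 they are CDH8 (61647242 to 62037035), CDH11 (64943753 to 65126112), CDH5 (66366622 to 66404786), CDH3 (68636189 to 68722616) and CDH13 (82626803 to 83800640). CDH1, at 0 in all libraries, starts at 68737225, next to CDH3. Between the first and the last of these positions, 126 other genes were tested, of which 6 rose (4.76%) and 6 fell, with a median of -0.0188. The nearest tested neighbours of CDH3 were ZFP90 (-0.27, adjusted p = 0.103) and TANGO6 (-0.20, adjusted p = 0.244), and those of CDH13 were MPHOSPH6 (-0.000197, adjusted p = 0.999) and HSBP1 (0.17, adjusted p = 0.109). No other tested gene that could be placed lies between CDH8 and CDH11 (2910 kb apart) or between CDH11 and CDH5 (1240 kb apart). On their other sides, GOT2, 2910 kb from CDH8 (-0.15, adjusted p = 0.239), and LINC00920, 3.74 kb from CDH5 (-0.08, adjusted p = 0.905), did not pass. On chromosome 5, CDH10 (24487100 to 24644978) and CDH6 (31193750 to 31329146) lie 6550 kb apart, with no tested gene placed between them. Their much closer neighbours on the outer sides, C5orf17 at 309 kb from CDH10 (0.54, adjusted p = 0.413) and DROSHA at 71.4 kb from CDH6 (0.03, adjusted p = 0.78), did not pass.

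Genes that work with cadherins were examined in 6 lists. Of 93 partner genes 77 were tested, 8 rose (4.57% of all genes did) and 1 fell (5.25% of all genes did). Together these were 11.7% of those tested, against 9.82% of all genes. Like the members, the partners leaned upwards. Without the block 62.3% of them had a log2 fold change above 0, against 49.2% of all tested genes. Their median with the block was 0.09. The calls depended on pairs 2 and 3. Without pair 2, 20 passed (14 higher, 6 lower), against 2272 of 13523 genes, and the median was 0.06. Without pair 3, 5 passed, against 1123 genes. Partners were not tested against the members. Of 28 catenins and adherens junction partners 23 were tested. In this list JUP, the junction catenin plakoglobin (0.27, adjusted p = 0.0358), PTPRM, a receptor phosphatase of junctions (0.36, adjusted p = 0.0347), PTPN14 (0.33, adjusted p = 0.0472) and KIFC3 (0.28, adjusted p = 0.0382) rose, and ABLIM1, an actin-binding protein, fell (-0.27, adjusted p = 0.0459). The core catenin CTNNB1 had 804, 774 and 819 CPM in control and 875, 855 and 901 CPM in knockdown libraries, without overlap, but 0.13 did not pass (adjusted p = 0.200). CTNNA1 and CTNND1 had log2 values of 0.10 each (adjusted p = 0.332 and 0.336). Among the 23 tested, 4 were higher and 2 lower without overlap (9.13% and 11.0% of all genes). The 2 lower ones, MLLT4 (-0.21, adjusted p = 0.0912) and PTPRF (-0.22, adjusted p = 0.0701), did not pass.

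Of the 12 genes of cadherin cleavage and turnover, all tested, 3 rose and none fell (4.57% and 5.25% of all genes did). In this list 3 were higher and 1 lower without overlap (9.13% and 11.0% of all genes). ADAM10, the membrane protease that sheds CDH2 and other cadherins, had 199.5, 209 and 208 CPM in control and 238, 308 and 267 CPM in knockdown libraries, without overlap (log2 0.40, adjusted p = 0.0230). NCSTN, a subunit of gamma-secretase, had 121, 126 and 126 CPM in control and 134, 171 and 153 CPM in knockdown libraries, also without overlap (0.29, adjusted p = 0.0423). PSEN2, a catalytic subunit of the same enzyme, was lower without overlap, at 15.3, 15.7 and 14.4 CPM in control and 12.4, 8.90 and 10.2 CPM in knockdown libraries, but did not pass (-0.55, adjusted p = 0.0539). FURIN, a protease that removes the propeptide of cadherins, rose by 0.64 (adjusted p = 0.0199) with overlapping groups. None of the 14 planar cell polarity partners of CELSR passed. Nearest to the threshold were PRICKLE1 (0.47, adjusted p = 0.0587), ANKRD6 (-0.40, adjusted p = 0.0596), PTK7 (0.25, adjusted p = 0.0812), PRICKLE2 (0.39, adjusted p = 0.109) and SCRIB (-0.17, adjusted p = 0.115). None of the 12 partners of FAT and Dachsous passed, the nearest being LIX1L (0.23, adjusted p = 0.153) and ATN1 (0.16, adjusted p = 0.175). Nor did any of the 8 tested of 17 other cadherin superfamily genes, where CLSTN3 (0.42, adjusted p = 0.0920) and DSC2 (0.43, adjusted p = 0.121) came nearest. Of 10 transcriptional repressors of cadherin genes 8 were tested: SNAI1 rose (0.42, adjusted p = 0.0458), and the other 7 did not pass. Of these, TCF4 was higher without overlap (0.21, adjusted p = 0.117), as were 9.13% of all genes. ZEB2 (-0.15, adjusted p = 0.153) and TCF3 (-0.11, adjusted p = 0.294) were lower without overlap, as were 11.0% of all genes. The groups overlapped for TWIST1 (0.26, adjusted p = 0.135), SNAI2 (0.17, adjusted p = 0.206), ZEB1 (-0.07, adjusted p = 0.541) and TWIST2 (0.00358, adjusted p = 0.993). At an unadjusted p under 0.05 without the block there were 1, 0 and 0 genes among the polarity partners, the FAT and Dachsous partners and the other superfamily genes.

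Proliferation genes were lower in the knockdown. Of 25 listed, 24 fell (5.25% of all genes did), with a median of -0.57 on the log2 scale. Without the block 0 of the 25 passed, as did 0% of all genes. In 7 of them every knockdown library was below every control library (11.0% of all genes). Their sum was 5458 to 6367 CPM in control and 2907 to 5511 CPM in knockdown libraries. Their medians in pairs 1, 2 and 3 were -0.20, -1.03 and -0.52 log2 units, with the widest difference in pair 2, as for the members (0.0589, 0.391 and 0.135). Their part in the changes of the members was not tested.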

How the data were processed

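Total RNA of AF22 cells was made into directional libraries, per the labels' protocols. The authors deposited 1 table of raw read counts per gene symbol for each library, whole numbers judged from the values. The submitters' processing notes name Trim Galore 0.6.6, STAR 2.7.10a, bedtools and hg38. The counting program, its annotation and its strand setting were not given in the sources used here. Only CELSR3 (65 bases, MIR4793, same strand) and CDH23 (C10orf105, opposite strand) have exons that overlap another counted gene in GENCODE 29.

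Groups came from the sample titles. Counts were tested in R 4.3.3 with edgeR 4.0.16 (TMM factors, genes with at least 1 CPM in 3 libraries, quasi-likelihood test on all 13523 such genes, group as the only term, two-sided, Benjamini-Hochberg adjustment over all of them, threshold 0.05). The SE is the size of the log2 fold change over the square root of F. CPM use TMM-scaled totals, and log2 CPM a prior count of 2. Levels per kb use merged exons of GENCODE 29 (GRCh38), and promoters are from RefSeq GRCh38.p14. Totals of 4962745 to 9640349 counts limit the precision of low genes.

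Both groups carry the numbers 1 to 3 with no word on what a number marks. Across the tested genes, deviations from the group means of same-numbered libraries correlated at 0.512, 0.428 and 0.474, all above the bound of 0.1, and those of other pairs at -0.315 to -0.0958. Deviations from a group's mean cancel out within the group, so positive values for same-numbered libraries leave negative ones for the others. The negative values are therefore not separate evidence for the pairing. Genes are not independent replicates. The numbers were therefore taken to pair the libraries, a pairing that comes from the data, and the paired fit adds the number as a block.

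Values in every library are given for members past the threshold in either fit, for those with a log2 fold change of at least 0.5 in size, and for the 2 highest per length in each class. Of partner genes, those past the threshold or, where none passed, up to 4 of smallest p per list were to be named. Added after their values were seen were PRICKLE2, PSEN2, MLLT4, PTPRF, the catenins CTNNB1, CTNNA1 and CTNND1 and the repressors other than SNAI1. The members and lists were chosen with earlier results of these data known.

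Alternatives were RLE factors, total count only, filterByExpr, no filter, DESeq2 1.42.0, limma voom (limma 3.58.1), leaving out each library or pair, and a correction for GC content and length. Counts were simulated for 13523 genes (knockdown against control). The fit without the block recovered 18% of the genes given a change of 0.6 on the log2 scale and 79% at 1.5, with 0 of 97 calls false. The fit with the block recovered 73% and 98%, with 9 of 180 calls false. The simulation held effects of the library number and a spread estimated with the block, so a higher recovery with the block was built in.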

Additional observations from a re-analysis of the deposited data

How the results depend on the processing

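The library number as a block decided the calls, and the cause of the differences between settings was not tested. With the replicate block, 12 members, 1328 genes and 9 partner genes passed, where the unpaired fit passed 0 of each. With the block, the counts of members, genes and partners were 13, 1674 and 12 with a trend in GC content and length removed, 3, 591 and 2 in DESeq2, and 12, 1375 and 10 with RLE factors. Chosen after seeing the data were the block with total count only (9, 1328 and 7), with filterByExpr (11, 1296 and 9) and with no filter (13, 2171 and 18, from more genes tested). Unpaired, 142 genes passed in DESeq2 and 2 with no filter, and no member or partner in either. Leaving out 1 library or, with the block, 1 pair gave 0 to 12 members, 0 to 2272 genes and 0 to 20 partners. Unpaired, members passed only without knockdown library 1 (3 members, CDH6, CDH10 and CDH11; 668 genes; 5 partners). With the block the counts were 11, 1336 and 11 without pair 1, 12, 2272 and 20 without pair 2, and 9, 1123 and 5 without pair 3. These fits without a pair leave 1 residual degree of freedom per gene and rest on the spread pooled over genes.

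BMI1 (-1.61 unpaired) passed at -1.64 with the block, -1.61 with the trend removed, -1.63 in DESeq2 and with RLE factors, -1.65 with total count only and -1.64 with filterByExpr or no filter. Unpaired, it passed at -1.61 with no filter and -1.59 in DESeq2, ranging from -1.87 to -1.44 as each library was left out, and with the block it was -1.89, -1.46 and -1.58 without pair 1, 2 and 3.

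Of the settings with the block, CDH10 and CDH13 passed in all 10, CDH3, CDH11 and PCDH9 in 9, CDH5, CDH6, CDH8 and PCDH8 in 8, FAT4 in 7, and PCDH18 and CELSR3 in 6. Of members that did not pass in the block fit itself, PCDH17 passed in 3 of the others, CELSR2 in 2, and CDH4 and PCDH19 in 1 each. With total count only, FAT4 (0.37, adjusted p = 0.0554), PCDH18 (0.24, adjusted p = 0.0598) and CELSR3 (0.30, adjusted p = 0.0626) did not pass. A change of sign was seen only in members that did not pass. When each library was left out, log2 values ranged from -0.0231 to 0.0502 for CDH2, -0.12 to 0.127 for CDH24, -0.129 to 0.0443 for CDH7, -0.39 to 0.403 for CDH20, -0.0365 to 0.137 for PCDH1, -0.141 to 0.313 for PCDH7, -0.0515 to 0.331 for DCHS1 and -0.254 to 0.15 for FAT3. With the block, CDH24 was 0.0394, CDH20 -0.0134 and FAT3 0.0479 without pair 1, CDH7 0.0636, PCDH7 -0.00498 and PCDH10 -0.0046 without pair 2, and CDH2 -0.0082 without pair 3. Unpaired, CDH24 (-0.00438) was 0.00428 with RLE factors and 0.00295 in DESeq2, and CDH20 (0.04) was -0.0196 in voom.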
